A study of Sus scrofa with 20 samples.

Results

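A set of 10 genes of the elastic fibre and of latent TGF-beta storage, ELN, FBN1, LTBP1, LTBP2, LTBP3, LTBP4, FBLN1, FBLN5, EMILIN1 and MFAP5, was examined in backfat and liver of the pig. They were taken as a list of symbols, and each was matched to a pig Ensembl identifier, so that 10 of 10 were found among the 31907 genes of the count table. All 10 passed the filter on low counts. Tissues came from Nanchukmacdon boars grown on Jeju island, which the labels give as WT, of normal disease state and 22 months old in both tissues, while the study's methods give a somewhat higher average age. Poly(A) RNA was sequenced from bulk backfat (5 libraries) and bulk liver (5 libraries), without treatment or allele that sets groups apart, so the tissue was the only contrast. The question of the study was which genes separate backfat from liver. Libraries are called here by tissue and by the boar number of their column (65, 67, 69, 71 and 72), since the replicate numbers of the labels were not tied to boars. The boars of both tissues are the same animals by these numbers.

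Elastic fibres have a core of cross-linked elastin, which is laid down on a scaffold of fibrillin microfibrils and gives stretch and recoil to arteries, lung, skin and the connective tissue around fat and organs. Fibulins and EMILINs sit between the core and the microfibrils. The latent TGF-beta binding proteins (LTBPs) resemble fibrillins, bind to microfibrils and, apart from LTBP2, hold the inactive form of the growth factor TGF-beta in the matrix until it is released.

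The 250 bases before the start of 9 of the genes (not LTBP3) in the RefSeq annotation of Sscrofa11.1 were read from the genome, so that the genes could be placed and their promoters set side by side. ELN lies on chromosome 3 (11214194 to 11245891, + strand) and FBN1 on chromosome 1 (123102011 to 123359649, + strand). LTBP1 lies on chromosome 3 (106300748 to 106724538, − strand), LTBP2 on chromosome 7 (97744974 to 97852848, − strand), LTBP3 on chromosome 2 (6701455 to 6720191, + strand) and LTBP4 on chromosome 6 (48831018 to 48861503, + strand). FBLN1 lies on chromosome 5 (3839498 to 3927178, − strand), FBLN5 on chromosome 7 (113423629 to 113526412, − strand), EMILIN1 on chromosome 3 (112031910 to 112039928, − strand) and MFAP5 on chromosome 5 (62742520 to 62757522, + strand). The genes are thus spread over 6 chromosomes, and none of them neighbours another of the list. Transcripts of FBN1 have 65 exons, while those of MFAP5 have 8 to 10 and those of EMILIN1 6 to 8.

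Promoters of 3 genes are shown, which are the elastin gene, the gene with the largest difference between tissues and a gene with more RNA in liver. Sequences run 5′ to 3′ on the strand of the gene, end at the base before the annotated start and are otherwise in lower case. Capitals mark the motifs searched on both strands, which were the TATA box (TATAAA), the SMAD box (CAGAC, read by the factors that carry the TGF-beta signal) and the GC box (GGGCGG).
ELN, chr3:11213944-11214193 (+): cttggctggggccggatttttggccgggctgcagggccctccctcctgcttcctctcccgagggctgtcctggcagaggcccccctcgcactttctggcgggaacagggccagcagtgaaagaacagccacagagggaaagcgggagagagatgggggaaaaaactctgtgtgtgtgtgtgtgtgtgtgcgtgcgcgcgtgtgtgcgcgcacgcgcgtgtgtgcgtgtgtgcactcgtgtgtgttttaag
MFAP5, chr5:62742270-62742519 (+): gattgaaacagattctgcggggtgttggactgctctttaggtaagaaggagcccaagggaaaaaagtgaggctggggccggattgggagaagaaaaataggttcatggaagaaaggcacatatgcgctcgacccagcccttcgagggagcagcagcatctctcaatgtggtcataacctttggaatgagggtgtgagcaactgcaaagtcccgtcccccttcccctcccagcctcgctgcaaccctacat
FBLN1, chr5:3927179-3927428 (−): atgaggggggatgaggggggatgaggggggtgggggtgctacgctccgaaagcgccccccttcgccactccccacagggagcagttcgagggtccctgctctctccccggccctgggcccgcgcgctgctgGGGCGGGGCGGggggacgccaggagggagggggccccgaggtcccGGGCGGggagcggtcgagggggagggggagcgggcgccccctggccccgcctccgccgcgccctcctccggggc
The ELN and MFAP5 windows hold none of the motifs. FBLN1 has 3 GC boxes, 2 of which overlap, at 119, 114 and 74 bases before the start. In the ELN window a run of TG and CG repeats lies close to the start. Among the 9 genes, TATAAA was found in 0, CAGAC in 4 (FBN1, LTBP1, FBLN5 and EMILIN1) and GGGCGG in 4 (FBN1, LTBP1, LTBP4 and FBLN1), where 9.77%, 39.0% and 45.9% of 19556 promoters of the same length hold them. GC content ran from 36.0% in FBLN5, with 2 CpG, to 79.6% in FBLN1, with 24 CpG, and the median of all promoters was 57.6% with 12 CpG. Methylation of these windows was not analysed here. A match only says that the letters are there, and the RefSeq start need not be the start used in these tissues.

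Library totals ran from 43820042 to 61772737 counts. Mitochondrial genes took 44.5% of the counts of liver 67 and 6.38% to 20.2% of the others. Defining markers bore out the labels, with a summed level of 6 hepatocyte genes (ALB, APOA1, TF, FGB, SERPINC1 and TTR) of 18850 to 81590 CPM (counts of a gene scaled to the library total) in liver, lowest in liver 67, and 201.6 to 700.1 in backfat, highest in backfat 69. The 5 adipocyte genes (ADIPOQ, PLIN1, FABP4, CIDEC and LEP) summed to 10750 to 16340 CPM in backfat and 7.05 to 8.70 in liver. In bulk tissue, fewer cells of a type and less RNA per cell cannot be told apart.

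Of the 10 genes, 5 were called between the tissues (edgeR, adjusted p no larger than 0.05 with a log2 fold change no smaller than 2), which were ELN, FBN1, LTBP3, LTBP4 and MFAP5, and all 5 were higher in backfat. Among the 16275 genes tested, 22.3% were called, 11.1% as higher in backfat and 11.2% as higher in liver. By the adjusted p alone, 9 of the 10 differed, 7 higher in backfat (the same 5 with LTBP1 and FBLN5) and 2 higher in liver (FBLN1 and EMILIN1), where 55.0% of all tested genes did so, 28.0% higher in backfat and 27.0% higher in liver. LTBP2 missed the threshold. The median log2 fold change, as backfat minus liver, was 2.24 over the 10 genes and 0.00 over all tested genes. Scaling by library size alone, without TMM, moved the median of all genes by 0.72 towards backfat. With it, LTBP2 (0.14) and EMILIN1 (0.02) changed sign, FBLN1 stayed lower in backfat at -0.33 but missed the threshold (adjusted p = 0.193), and FBLN5 (2.41) passed the fold threshold. Calls among all genes then split into 2874 higher in backfat and 1340 higher in liver, against 1814 and 1819 with TMM.

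**Figure D1:**
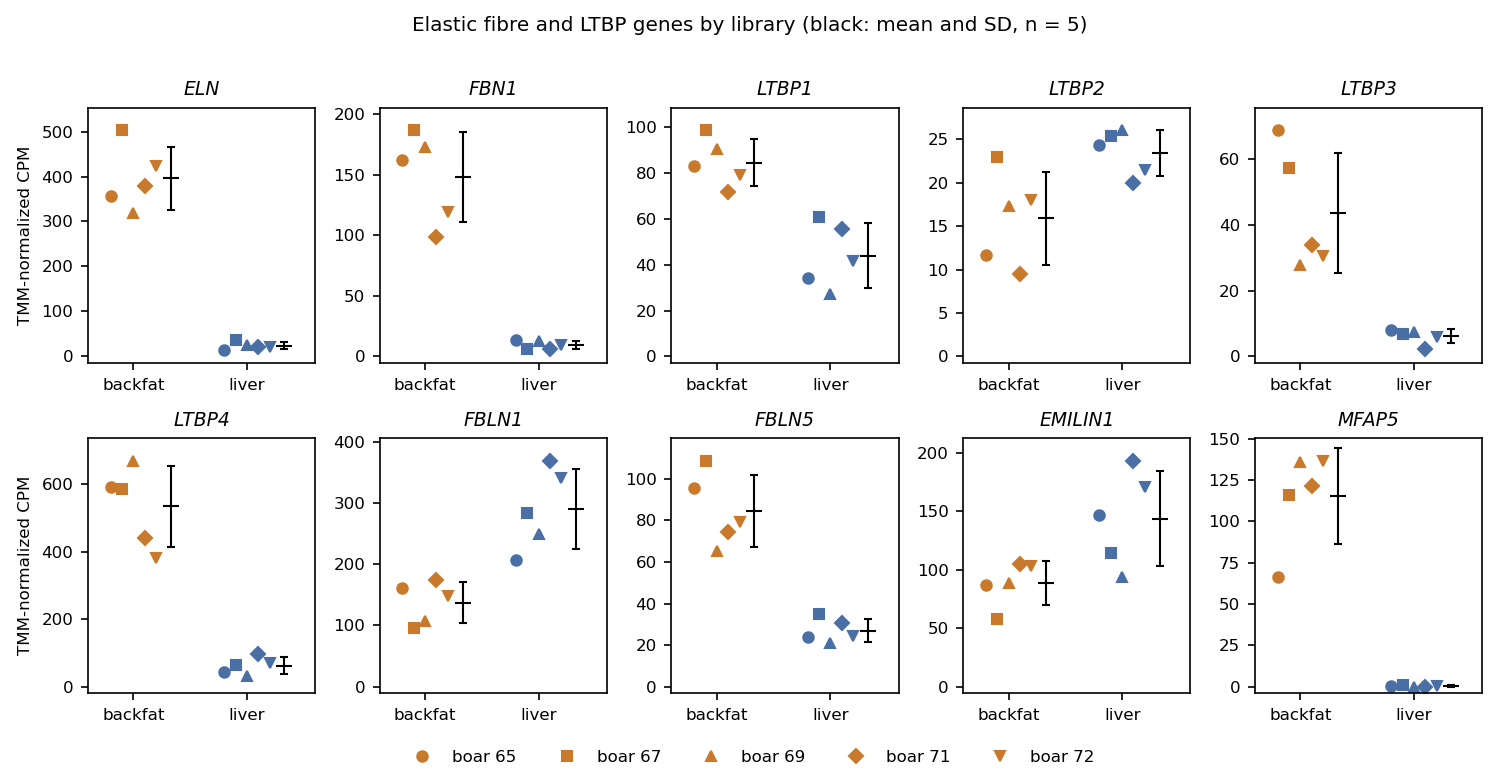
Level of each of the 10 genes in each library, as TMM-normalized CPM on a linear axis that differs between panels, with the boar given by the shape of the point and the mean and SD of 5 libraries in black. ELN, FBN1, LTBP1, LTBP3, LTBP4, FBLN5 and MFAP5 sit higher in all backfat than in all liver libraries, FBLN1 sits lower (without TMM its difference missed the threshold), and the ranges of LTBP2 and EMILIN1 overlap (both changed sign without TMM). The share of all tested genes whose ranges do not overlap was not counted.

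ELN codes for tropoelastin, the soluble unit of the elastin core. Its level was 356, 502, 318, 378 and 424 CPM (TMM-normalized, as all CPM of single genes here) in backfat 65, 67, 69, 71 and 72. In the liver libraries of the same boars it was 14.3, 36.5, 25.0, 21.1 and 21.2 CPM. The lowest backfat library was thus far above the highest liver library, liver 67, and the tissues did not overlap. How often ranges stay apart among all tested genes was not counted, for ELN as for the genes below. The log2 fold change was 4.07 ± 0.28 (SE, edgeR, adjusted p = 1.45e-07), a 16.8-fold higher level in backfat. Between boars, the highest level was 1.58 times the lowest in backfat and 2.56 times in liver, both small beside the difference of tissues.

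FBN1 codes for fibrillin-1, the main protein of microfibrils, which is mutated in Marfan syndrome. Backfat held 162.5, 187, 173, 98.8 and 119.5 CPM in the order of boars above, and liver held 13.3, 6.26, 12.55, 5.78 and 9.22 CPM. No liver library came near the lowest backfat library, that of boar 71, which was also the boar with the lowest liver level. The log2 fold change was 3.97 ± 0.30 (SE, edgeR, adjusted p = 3.1e-07), a 15.7-fold higher level in backfat.

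MFAP5 codes for a small glycoprotein that binds to fibrillin microfibrils, and it had the largest log2 fold change of the 10. Backfat libraries had 66.4, 116, 136, 121.5 and 137 CPM, lowest in backfat 65. In liver, raw counts were 6, 47, 4, 0 and 20 for boars 65, 67, 69, 71 and 72, or 0.150, 1.27, 0.0849, 0 and 0.542 CPM, so that liver 67 alone held most of them. Its log2 fold change was 8.14 ± 0.76 (SE, edgeR, adjusted p = 1.93e-06), and 9.17 without liver 67. At such counts the size of the fold depends on few reads, though every backfat library was above every liver library.

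EMILIN1 codes for a glycoprotein at the interface of elastin and microfibrils, which also restrains the processing of TGF-beta precursor. Backfat held 87.2, 57.9, 88.5, 105 and 103 CPM, and liver held 147, 114.5, 93.6, 193 and 171 CPM. Liver levels were mostly above those of backfat, but liver 69 was below backfat 71 and 72, so the ranges overlapped. In the fit, EMILIN1 had a log2 fold change of -0.70 ± 0.23 (SE, edgeR, adjusted p = 0.0213), against 0.02 without TMM, and -0.58 with an adjusted p of 0.0539 without backfat 67, the lowest backfat library. With TMM it was lower in backfat in all 10 fits that left out 1 library, from -0.83 to -0.58.

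Both fibulins differed between tissues in opposite directions. FBLN1 codes for fibulin-1, a glycoprotein of elastic fibres and basement membranes that also circulates in plasma. It had 161, 96.1, 108, 174 and 148 CPM in backfat and 207, 285, 250, 369 and 341 CPM in liver, with no overlap on this TMM-normalized scale. Raw counts, not scaled for library size, did overlap (6301 to 14240 in backfat and 8295 to 12560 in liver). FBLN1 had a log2 fold change of -1.08 ± 0.23 (SE, edgeR, adjusted p = 0.00177), or 2.11 times the backfat level in liver, and -0.33 (adjusted p = 0.193) without TMM. FBLN5 codes for fibulin-5, which binds tropoelastin and brings it to microfibrils. It had 95.7, 109, 65.4, 74.5 and 79.5 CPM in backfat and 24.1, 34.8, 20.9, 30.65 and 24.5 CPM in liver. These ranges were apart as well, and the log2 fold change was 1.65 ± 0.19 (SE, edgeR, adjusted p = 1.37e-05), below the fold threshold, a 3.14-fold higher level in backfat.

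The LTBPs did not move as a family. LTBP4, needed for the assembly of elastic fibres, had 592, 585, 669, 440 and 381 CPM in backfat and 43.3, 65.1, 32.4, 97.7 and 68.6 CPM in liver. Levels of LTBP4 were thus highest in the backfat of boars 65, 67 and 69, while in liver boar 71 was highest. The log2 fold change was 3.12 ± 0.32 (SE, edgeR, adjusted p = 4.56e-06), an 8.69-fold higher level in backfat. LTBP3, which binds all TGF-beta isoforms in their latent form, had 68.7, 57.2, 27.9, 33.9 and 30.6 CPM in backfat and 7.90, 6.86, 7.45, 2.37 and 6.02 CPM in liver. Backfat 65 and 67 stood above the other backfat libraries, and liver 71 was the lowest. For LTBP3 the log2 fold change was 2.83 ± 0.36 (SE, edgeR, adjusted p = 2.5e-05), a 7.12-fold higher level in backfat.

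LTBP1, a widespread carrier of latent TGF-beta, had 83.05, 98.65, 90.4, 71.9 and 79.3 CPM in backfat and 34.4, 60.9, 27.3, 55.7 and 41.85 CPM in liver. Its ranges were close but did not overlap, from 60.9 CPM in liver 67 to 71.9 CPM in backfat 71. The log2 fold change was 0.94 ± 0.22 (SE, edgeR, adjusted p = 0.00271), a 1.92-fold higher level in backfat and below the fold threshold. LTBP2, which binds to microfibrils and not to latent TGF-beta, had 11.6, 22.95, 17.3, 9.53 and 18.0 CPM in backfat and 24.3, 25.4, 26.0, 19.97 and 21.4 CPM in liver. Only backfat 67 reached into the range of liver. For LTBP2 the log2 fold change was -0.56 ± 0.23 (SE, edgeR, adjusted p = 0.0516), against 0.14 without TMM. With the boar as a block it was -0.62 with an adjusted p of 0.0254, and DESeq2 gave -0.57 with an adjusted p of 0.0488, so its side of the adjusted p turned on the test, while it was short of the fold threshold in each. It also turned on single libraries, with -0.72 without backfat 67 (adjusted p = 0.0154) and -0.64 without liver 71 (adjusted p = 0.0448). RefSeq exons of LTBP2 share 1518 bases with ISCA2 on the opposite strand. Counting took no account of strand and left out reads that fall on more than 1 gene, so reads there would be lost from both genes where the annotation used for counting holds the same overlap, which was not checked. Shorter shared stretches are found for LTBP1 (459 and 105 bases with 2 unnamed loci) and FBLN5 (87 bases with TRIP11).

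**Figure D2:**
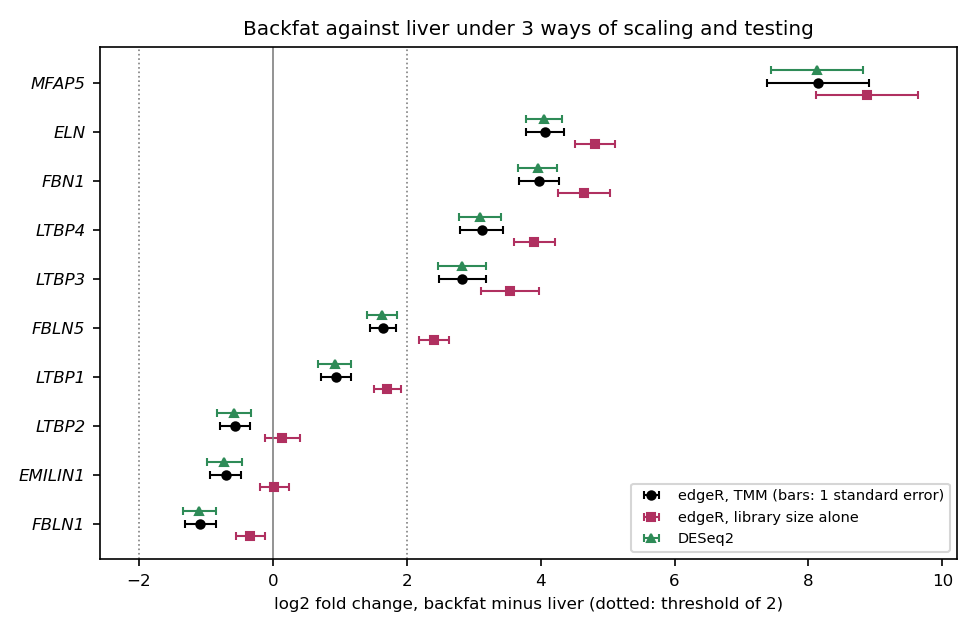
Log2 fold change of each gene, backfat minus liver, with 1 standard error, by edgeR with TMM (black), by edgeR with library size alone (red) and by DESeq2 (green), with dotted lines at the fold threshold of 2. MFAP5 (8.14), ELN (4.07), FBN1 (3.97), LTBP4 (3.12) and LTBP3 (2.83) lie beyond the threshold in each, FBLN5 only with library size alone (2.41), and LTBP2 (0.14) and EMILIN1 (0.02) change sign with library size alone.

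Levels of different genes were compared per length, as RPKM (TMM-normalized CPM per kilobase of the gene's merged exons). In backfat ELN was first (166.6 ± 29.9 RPKM, SD, n = 5) and LTBP4 second (96.7 ± 21.6), each above the next gene in every library. MFAP5 (37.9 ± 9.47 RPKM), FBLN1 (36.3 ± 8.93) and FBLN5 (29.6 ± 6.04) followed with overlapping ranges. Below a gap came EMILIN1 (18.3 ± 3.89 RPKM), FBN1 (15.4 ± 3.87), LTBP1 (12.9 ± 1.57) and LTBP3 (8.51 ± 3.55), where neighbours overlapped, and LTBP2 was last (1.82 ± 0.61), apart from LTBP3. ELN alone made up 39.3% of the summed RPKM of the 10 genes.

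The order in liver was another one. FBLN1 was first (76.7 ± 17.4 RPKM, SD, n = 5) and EMILIN1 second (29.7 ± 8.38), each apart from the next. LTBP4 (11.1 ± 4.58 RPKM), ELN (9.94 ± 3.44), FBLN5 (9.41 ± 1.96) and LTBP1 (6.71 ± 2.16) overlapped as neighbours, LTBP2 (2.68 ± 0.30) stood apart on both sides, and LTBP3 (1.19 ± 0.43) overlapped with FBN1 (0.977 ± 0.359). MFAP5 was last (0.134 ± 0.172 RPKM). FBLN1 alone made up 51.6% of the summed RPKM, against 8.56% in backfat, and ELN 6.69%. In liver LTBP2 thus ranked above LTBP3 and FBN1, while in backfat it ranked below both.

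**Figure D3:**
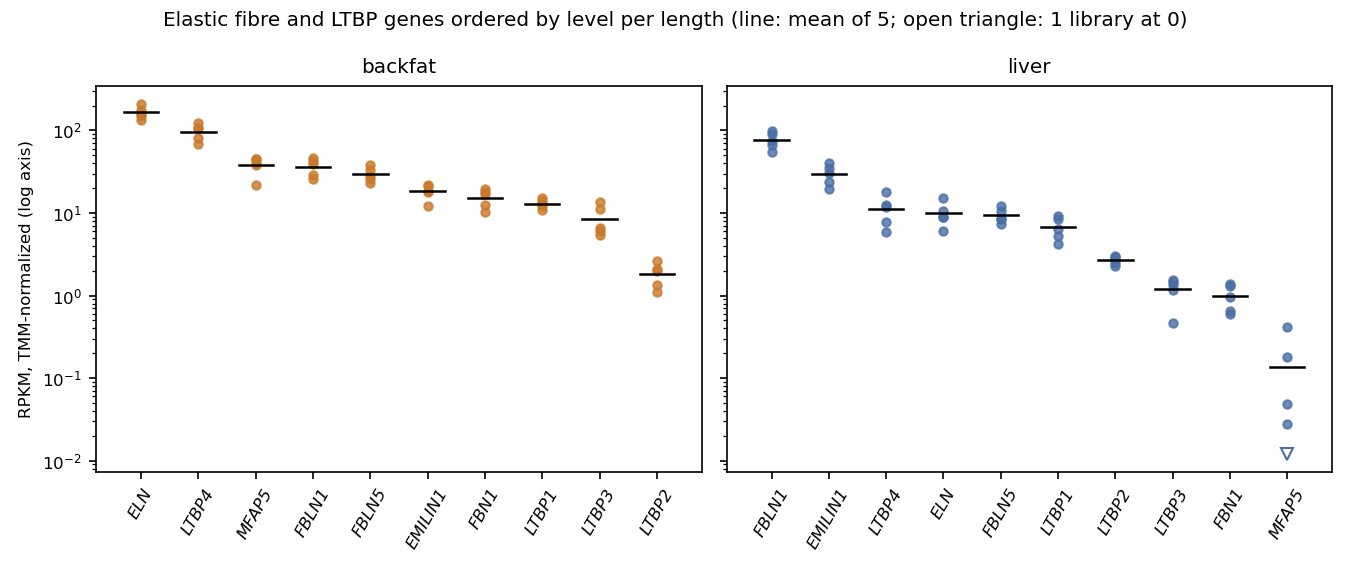
The 10 genes ordered by mean RPKM (TMM-normalized, log axis) in backfat and in liver, with 1 point per library and a line at the mean of 5. ELN (166.6 RPKM) leads in backfat and FBLN1 (76.7 RPKM) in liver, and MFAP5 (37.9 RPKM in backfat) is last in liver, where the open triangle is liver 71 with 0 counts.

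Ratios within a library do not depend on the scaling between libraries. Each LTBP was expressed as a percentage of the summed RPKM of LTBP1, LTBP2, LTBP3 and LTBP4, and tissue means were set against each other in a two-sided exact permutation test that ran through every arrangement of the 10 libraries, adjusted by Benjamini-Hochberg for 6 comparisons (4 shares and 2 ratios). The smallest p that this design can give is 0.00794. Paired by boar, an exact sign-flip test cannot go below 0.0625 with 5 boars, so no share could pass 0.05 in that test.

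LTBP4 held 79.7%, 78.6%, 85.1%, 81.0% and 77.4% of the LTBP total in backfat and 45.1%, 46.6%, 40.6%, 61.2% and 55.4% in liver. It was the main LTBP in every library but took a smaller part of the total in all liver libraries (80.4 ± 2.96% against 49.8 ± 8.35%, SD, n = 5 each; exact permutation, adjusted p = 0.0119, sign flip over boars, p = 0.0625, higher in backfat in 5 of 5 boars). LTBP1 held 9.39% to 13.6% in backfat and 28.4% to 36.7% in liver, a difference of -19.7 points (backfat minus liver; exact permutation, adjusted p = 0.0119, sign flip, p = 0.0625). LTBP2 held 0.988% to 2.32% in backfat and 7.90% to 20.6% in liver, a difference of -11.8 points (exact permutation, adjusted p = 0.0119, sign flip, p = 0.0625). For LTBP1 and LTBP2 all 5 boars had the larger share in liver. LTBP3 held 7.09 ± 2.26% in backfat and 6.20 ± 3.35% in liver (SD, n = 5 each), and its ranges overlapped (exact permutation, adjusted p = 0.8). Shares add up to the whole, so a larger part of LTBP4 leaves smaller parts for the others, and the smaller share of LTBP1 in backfat went with a 1.92-fold higher level of LTBP1 there.

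**Figure D4:**
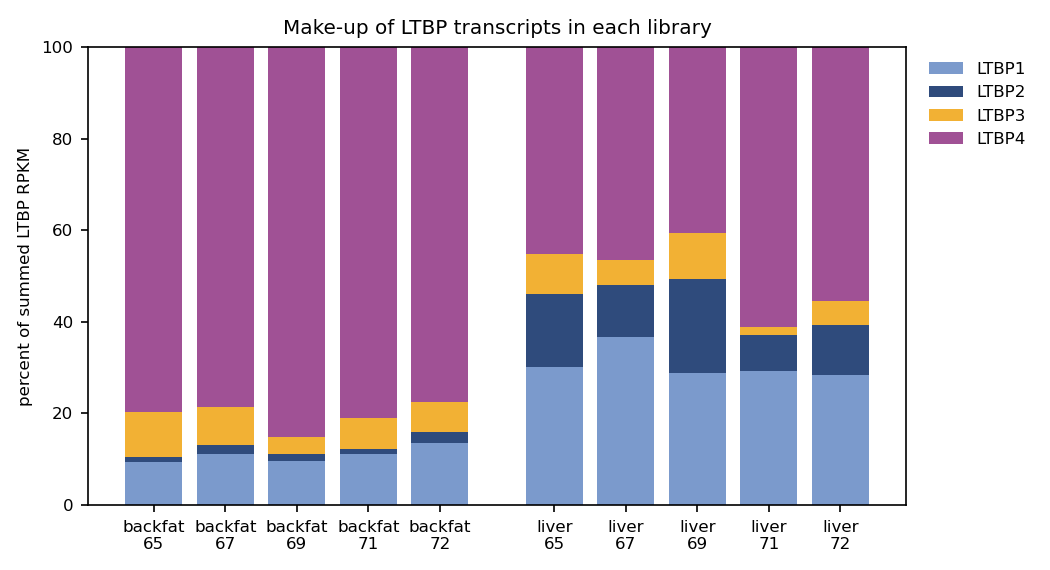
Share of each LTBP, in percent of the summed RPKM of LTBP1 to LTBP4, in each of the 10 libraries. LTBP4 takes 77.4% to 85.1% in backfat and 40.6% to 61.2% in liver, and the parts of LTBP1 and LTBP2 are wider in all liver libraries.

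The ratio of ELN to FBN1, the core against its scaffold, was 3.46 ± 0.45 on the log2 scale in backfat and 3.35 ± 0.91 in liver (SD, n = 5 each; exact permutation, adjusted p = 0.825). Single liver libraries ran from 2.12 in boar 65 to 4.54 in boar 67, so this spread was wider than the difference of 0.11. With 1 RPKM in place of 0.01 added to both genes, the difference was 0.94 (adjusted p = 0.0381), so whether the ratio differed turned on the value added at the low FBN1 level of liver. The ratio of FBLN1 to FBLN5 was 0.28 ± 0.52 on the log2 scale in backfat and 3.02 ± 0.34 in liver (SD, n = 5 each; exact permutation, adjusted p = 0.0119, sign flip over boars, p = 0.0625), and did not overlap. As a fold, FBLN1 was 1.22 times FBLN5 in backfat and 8.11 times in liver, per length.

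Levels also varied between boars. Backfat 67 was the highest backfat library for ELN, FBN1, LTBP1, LTBP2 and FBLN5 and the lowest for FBLN1 and EMILIN1. Backfat 71 was the reverse for 5 of these, with the lowest FBN1, LTBP1 and LTBP2 and the highest FBLN1 and EMILIN1. Among liver libraries, liver 71 was the highest for LTBP4, FBLN1 and EMILIN1 and the lowest for FBN1, LTBP2, LTBP3 and MFAP5. Liver 69 was the lowest for LTBP1, LTBP4, FBLN5 and EMILIN1. FBLN1 and EMILIN1 thus peaked in boar 71 in both tissues, as a description over 5 boars.

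Liver 67 was the highest liver library for ELN, LTBP1, FBLN5 and MFAP5. It also had the highest liver sums of several marker lists, in CPM unscaled by TMM. Among these were 6 smooth muscle and pericyte genes (308 against 158.7 to 214.9 in the other liver libraries) and 6 fibroblast genes (927 against 661 to 866). Others were 3 skeletal muscle genes (114 against 0.246 to 1.12) and 3 red cell genes (1250 against 62.0 to 279). Not every gene followed its sum, and liver 71 was above liver 67 for DCN (54.9 against 41.3), COL1A2 (197 against 161) and PDGFRB (82.8 against 64.6). For COL3A1, liver 65 was above liver 67 (367 against 308). The sum of 5 hepatic stellate cell genes was lowest in liver 67 (94.7), and 3 endothelial genes gave 91.8, inside the liver range (59.6 to 127). The part of these cells in the levels of ELN, LTBP1, FBLN5 and MFAP5 in liver 67 was not tested. Without this library the log2 fold changes were 4.25 for ELN, 1.05 for LTBP1, 1.73 for FBLN5 and 9.17 for MFAP5 (edgeR), against 4.07, 0.94, 1.65 and 8.14 with it.

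Markers of cells that make elastic fibres moved with the tissues as well. The 6 fibroblast genes (PDGFRA, DCN, LUM, COL1A1, COL1A2 and COL3A1) summed to 56610 to 100000 CPM in backfat and 661 to 927 in liver, and 6 of 6 had the higher mean in backfat. Most of each sum came from the collagen genes. Means in backfat and liver were 80.9 and 10.67 CPM for PDGFRA, 1385 and 37.0 for DCN and 876 and 1.28 for LUM. The 6 smooth muscle and pericyte genes (ACTA2, MYH11, CNN1, TAGLN, PDGFRB and RGS5) summed to 958 to 1338 CPM in backfat and 159 to 308 in liver, with 6 of 6 higher in backfat. Of 4 endothelial genes listed, 3 were in the table and summed to 629 to 1240 CPM in backfat and 59.6 to 127 in liver. Genes of hepatic stellate cells (RELN, LRAT, HAND2, NGFR and DES), the vitamin A storing mesenchymal cells of the liver, summed to 39.3 to 122.8 CPM in backfat and 94.7 to 116 in liver, where 4 of 5 had the higher mean. Means in backfat and liver were 8.20 and 33.5 CPM for RELN, 0.196 and 4.5 for LRAT and 0.0489 and 13.35 for HAND2. For DES they were close, at 21.3 and 24.9 CPM, and NGFR went the other way, with 54.8 and 29.9 CPM. The part of these cell types in the differences of the 10 genes was not tested.

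A wider list of 51 genes of elastic fibres and of latent TGF-beta was read from the same fit. Of these, 50 were in the table, and 47 were tested (FBN3, ITGB6 and MMP12 were too low). By the call, 16 were higher in backfat and 3 in liver, where 11.1% and 11.2% of all tested genes were. By the adjusted p alone 29 were higher in backfat, 6 were higher in liver and 12 missed the threshold, beside 28.0% and 27.0% of all tested genes that passed it in each direction. The median log2 fold change was 1.29, against 0.00 over all genes tested. Without TMM, 23 were called higher in backfat and 1 in liver, where 17.7% and 8.23% of all tested genes were. By the adjusted p alone, the counts without TMM were 39 and 3, where 50.5% and 14.3% of all tested genes passed it in these directions. With TMM and 1 library left out, 27 to 31 and 3 to 7 passed the adjusted p alone. Of all tested genes, 24.8% to 29.1% and 24.8% to 28.5% then did so.

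Fibrillins and microfibril glycoproteins were next to FBN1 and MFAP5 in role. By the adjusted p, 4 of 5 tested were higher in backfat, 2 of them past the fold threshold, beside 28.0% and 11.1% of all tested genes. FBN2, the fibrillin of developing tissue, had 12.2 ± 4.98 CPM in backfat and 0.140 ± 0.0822 in liver (SD, n = 5 each), a log2 fold change of 6.45 ± 0.46 (SE, edgeR, adjusted p = 1.86e-07). MFAP2, a close relative of MFAP5, had a log2 fold change of 3.96 ± 0.35 (SE, edgeR, adjusted p = 1.29e-06). MFAP4, an elastin and fibrillin binding protein, was at 305 ± 75.2 CPM in backfat and 86.5 ± 59.5 in liver (SD), a log2 fold change of 1.82 (edgeR, adjusted p = 0.00438) below the fold threshold, against 2.10 with the boar as a block and 2.19 without liver 71, which would be called. MFAP1, a nuclear splicing protein that shares only the name, was at 0.12 (edgeR, adjusted p = 0.522).

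Among 6 fibulins and relatives, 4 were higher in backfat by the adjusted p and 1 in liver, beside 28.0% and 27.0% of all tested genes. The 1 in liver was HMCN1 (-0.64, and 0.11 without TMM). HMCN2 missed the threshold (1.34, and 1.98 with an adjusted p of 0.00861 without liver 67). FBLN2 (log2 fold change 4.93), FBLN7 (5.62) and EFEMP1, or fibulin-3 (3.33), passed the fold threshold, and EFEMP2, or fibulin-4, which brings lysyl oxidase to elastin, was at 1.72 (edgeR, adjusted p = 0.000433), and at 2.04 without liver 67. FBLN1 was thus higher in liver (not past the threshold without TMM), while FBLN2, FBLN5, FBLN7, EFEMP1 and EFEMP2 were higher in backfat. Of the EMILIN1 relatives, EMILIN2 (2.56), EMILIN3 (3.43), MMRN1 (1.68) and MMRN2 (2.12) were 4 of 4 higher in backfat by the adjusted p, and 3 passed the fold threshold, MMRN2 only with backfat 69 (1.93 without it). Of all tested genes, 28.0% were higher in backfat by the adjusted p and 11.1% were called higher there. EMILIN3 in liver rested mostly on liver 69, at 4.99 CPM beside 0.0948 to 0.998 in the other liver libraries, and its log2 fold change was 5.19 without that library.

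Lysyl oxidases cross-link elastin and collagen, and 4 of 5 were higher in backfat by the adjusted p, where 28.0% of all tested genes were. LOX had 61.6 ± 7.00 CPM in backfat and 4.87 ± 0.628 in liver (SD, n = 5 each), with a log2 fold change of 3.66 ± 0.16 (SE, edgeR, adjusted p = 5.96e-09). LOXL2 had 273 ± 55.4 CPM in backfat and 2.63 ± 1.14 in liver (SD), with a log2 fold change of 6.70 ± 0.35 (SE, edgeR, adjusted p = 2.02e-08), the largest of the wider list. LOXL1 (1.23) and LOXL3 (1.04) were below the fold threshold, and LOXL4 was at 0.04 (edgeR, adjusted p = 0.899).

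Of 7 ADAMTS family genes linked to microfibrils, 3 were higher in backfat by the adjusted p and 2 in liver. Of all tested genes, 28.0% and 27.0% passed it in these directions, and whether counts of 7 genes differ from these shares was not tested. The 2 that missed it were ADAMTS6 (log2 fold change 0.07, edgeR, adjusted p = 0.838) and THSD4 (1.18, adjusted p = 0.0666). ADAMTS17 (log2 fold change 4.49) passed both thresholds in backfat, and ADAMTS10 (1.17) and ADAMTSL5 (1.74) passed the adjusted p. ADAMTSL5 passed both with the boar as a block (2.25) and without liver 67 (2.57). ADAMTSL2, a secreted protein that binds LTBP1 and fibrillin-1, had 3.39 ± 1.02 CPM in backfat and 100.7 ± 39.2 in liver (SD, n = 5 each), a log2 fold change of -4.89 ± 0.32 (SE, edgeR, adjusted p = 1.07e-07) and -4.13 without TMM. ADAMTSL4, a binder of fibrillin-1, was at -2.05 ± 0.21 (SE, edgeR, adjusted p = 3.82e-06), and -1.34 without TMM, where it was no longer called. ADAMTSL2 was called in 10 of 10 fits that left out 1 library, and ADAMTSL4 in 7 of 10, where its values ran from -2.20 to -1.96 and it was not called without backfat 71, backfat 72 or liver 65.

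Of the TGF-beta ligands that LTBPs can hold, TGFB2 had 25.6 ± 4.83 CPM in backfat and 1.86 ± 0.810 in liver (SD, n = 5 each), a log2 fold change of 3.79 ± 0.28 (SE, edgeR, adjusted p = 3.01e-07). TGFB3 was at 1.22 (edgeR, adjusted p = 0.00911). TGFB1 had 51.2 to 75.1 CPM in backfat and 27.05 to 78.4 in liver, with overlapping ranges and a log2 fold change of 0.43 ± 0.26 (SE, edgeR, adjusted p = 0.177). Of the other carriers of latent TGF-beta, NRROS, which serves in macrophages and microglia, was at 0.66 (edgeR, adjusted p = 0.0137) and LRRC32, or GARP, at 0.38 (edgeR, adjusted p = 0.388). The ligands thus differed among themselves, with TGFB2 far higher in backfat.

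Activators of latent TGF-beta, listed together with the precursor protease FURIN, gave 3 of 7 higher in backfat by the adjusted p. In liver 1 of 7 was higher, which was FURIN, and 3 missed the threshold. Of all tested genes, 28.0% and 27.0% passed it in these directions, and whether counts of 7 genes differ from these shares was not tested. THBS1, or thrombospondin-1, was at 2.61 ± 0.43 (SE, edgeR, adjusted p = 0.00023), ITGB1 at 1.58 and ITGAV at 1.29. FURIN, the protease that cuts the TGF-beta precursor, was at -2.03 ± 0.28 (SE, edgeR, adjusted p = 5.4e-05), and -1.33 without TMM, where it was no longer called, and FURIN was at -1.96 with the boar as a block. With 1 library left out it ran from -2.25 to -1.94 and was called in 6 of 10 fits, not without backfat 69, backfat 71, liver 69 or liver 72. The elastin binding and trafficking genes FKBP10 (3.38), a collagen and elastin chaperone, and GLB1 (2.39), whose splice form is the elastin receptor, passed the fold threshold. ATP7A, the copper pump that loads lysyl oxidase, was at 1.32 (edgeR, adjusted p = 0.0036), and PPIB at -0.80 (edgeR, adjusted p = 0.0439, 0.0569 with the boar as a block, and -0.12 without TMM). Of the elastases, MMP2 had 664.5 ± 48.1 CPM in backfat and 32.4 ± 8.04 in liver (SD, n = 5 each), with a log2 fold change of 4.36 ± 0.25 (SE, edgeR, adjusted p = 3.24e-08). CTSS was at -0.73 (edgeR, adjusted p = 0.0218, and -0.05 without TMM), while ELANE and MMP9 missed the threshold.

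**Figure D5:**
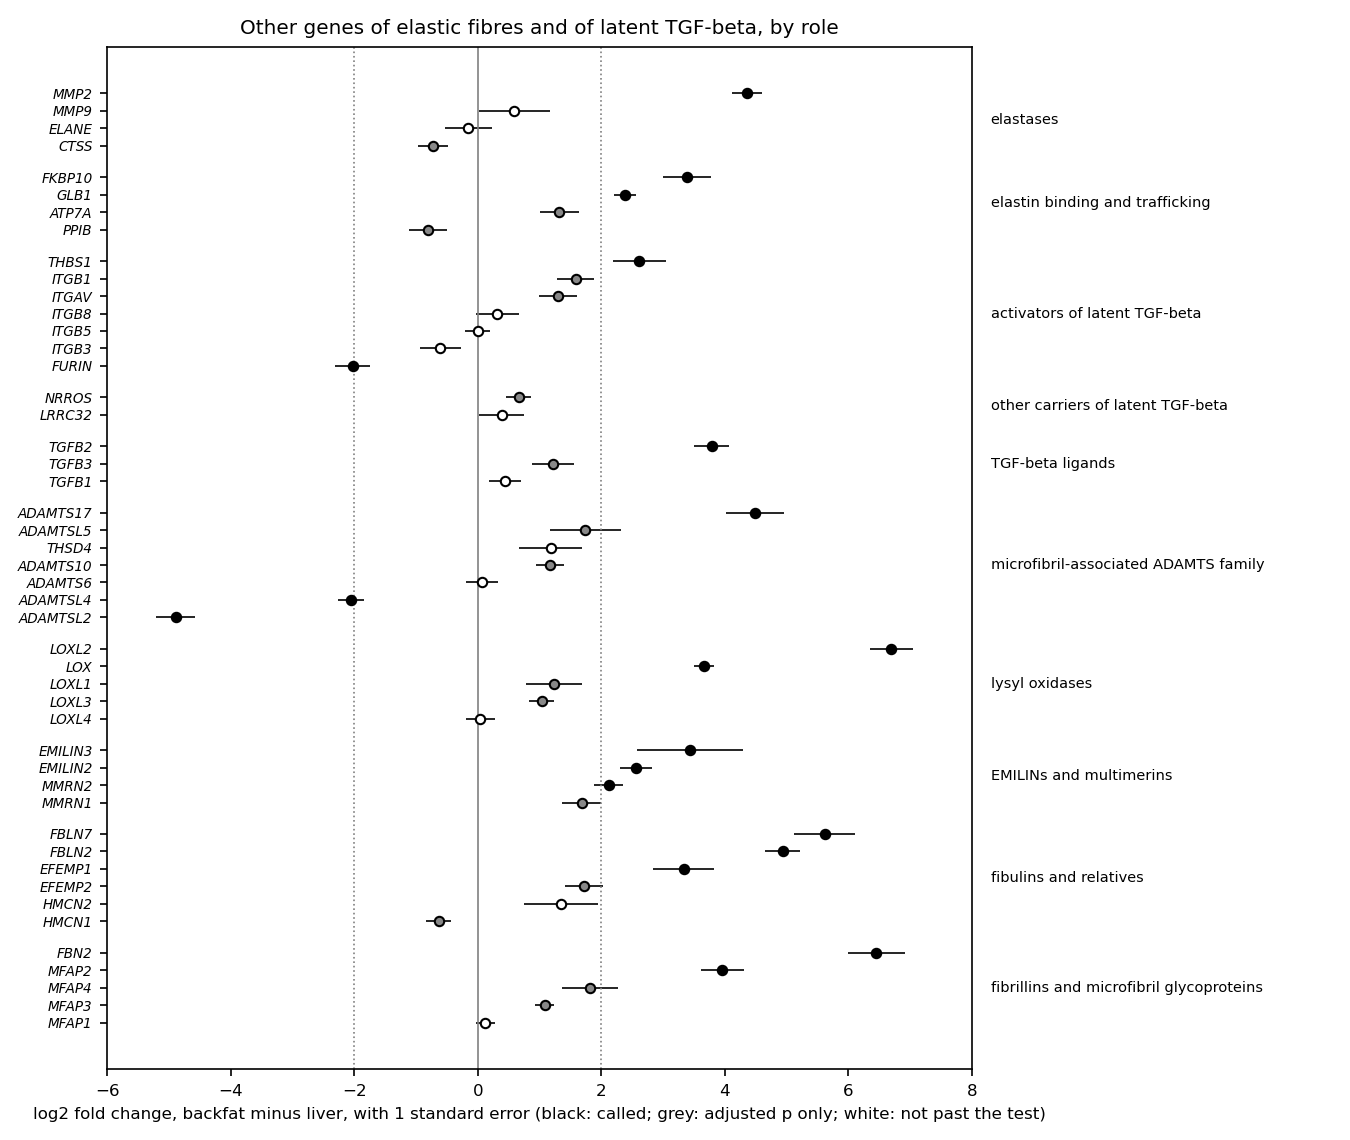
Log2 fold change, backfat minus liver, with 1 standard error for the 47 tested genes of the wider list, grouped by role, with dotted lines at the fold threshold of 2. Black points were called (16 higher in backfat, 3 higher in liver), grey points passed the adjusted p only, and white points passed neither. Of all tested genes, 11.1% and 11.2% were called in these directions. Without TMM, 23 and 1 were called, where 17.7% and 8.23% of all tested genes were.

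For each of the 10 genes, the gene with the nearest profile was sought among all tested genes, as the smallest root-mean-square distance between log2 CPM over the 10 libraries after centring each gene. LTBP1 had the closest neighbours, MGAT5 (0.11 on the log2 scale) and EPB41L2 (0.12). LTBP4 was nearest to BNC2 (0.19) and FGFR1 (0.27), FBLN5 to MAP4K4 (0.17) and WWC3 (0.18), and FBN1 to SLC22A3 (0.33) and GLRB (0.35). MFAP5 had the most distant ones, ANGPTL1 (0.53) and CYP4B1 (0.88). EMILIN1 was nearest to TMEM104 (0.20) and NSG1 (0.20), and LTBP2 to CCNJ (0.23) and AP1S3 (0.25). The nearest genes to ELN (0.239) and LTBP3 (0.251) had no symbol in the tables used here. Second to these came CACHD1 for ELN (0.2445) and VPS37B for LTBP3 (0.2995). None of the named neighbours belongs to the 10 genes, and the measure over 10 libraries mostly reads the difference between tissues.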

How the data were processed

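Backfat and liver of 5 boars were sequenced as RNA (5 libraries per tissue) and as bisulfite-converted DNA. Methylation files give calls by read position and carry no genomic position, so they were not used here. For RNA, the authors checked reads with FastQC, trimmed them with Trimmomatic, used HISAT2 to align them to Sscrofa11.1 and obtained counts per gene from featureCounts 2.0.1 on the annotation of Ensembl release 99. The deposited values are raw counts, 43820042 to 61772737 per library, with a merged exon length per gene. By the command in the file header, counting used fragments of exons, no strand, and the defaults that drop reads of several places or genes, which lowers counts where genes overlap or resemble each other. 0 columns were left without a sample or group.

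The counts went into edgeR 4.0.16 (R 4.3.3). Low genes were removed with filterByExpr by tissue, libraries were scaled with TMM factors, and the quasi-likelihood test was run on a model of tissue alone, where the study names DESeq2. Adjusted p-values are Benjamini-Hochberg over 16275 genes, and a call needed an adjusted p no larger than 0.05 with a log2 fold change of 2 or more in size. Libraries were the unit, and precision is set by 5 animals per tissue. RPKM was CPM per kilobase, with 0.01 added before ratios. Marker sums are CPM of all counts without TMM. Boar numbers came from the column names, which pair the libraries by animal. Deviations from the tissue means correlated by 0.24, 0.11, 0.049, 0.16 and 0.098 for boars 65, 67, 69, 71 and 72, and 4 of 5 boars had the highest correlation with their own number.

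Alternatives were DESeq2 size factors, library size alone, mitochondrial genes left out before TMM, DESeq2 1.42.0, limma-voom (limma 3.58.1), glmTreat against a log2 fold change of 2, 2 other filters (1 count in all, and 10 counts in every library), the boar as a block, each library left out in turn, and liver 67 with backfat 69 left out. For shares and ratios, they were raw counts in place of RPKM, 1 RPKM added, and a sign-flip test over boars. The fit was tested on simulated data. Named genes were all 10 genes, the called and the most abundant genes of a wider list, and the 2 genes nearest in profile to each. Members and lists were chosen with earlier results of these data known, so no p-value was adjusted over a list alone and no list was tested as a set. Gene places and promoters came from RefSeq (Sscrofa11.1, the build of the counts), matched by symbol. Some items that these rules name are not reported here. Figures were drawn with matplotlib 3.10.9 in Python 3.11.15.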

Additional observations from a re-analysis of the deposited data

Results flagged for a closer look

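In liver 67, LTBP1 took 36.65% of the summed RPKM of the 4 LTBPs, where the nearest other liver library was at 30.07%. The gap was 0.80 of the range of the 5 liver libraries, above Dixon's critical value of 0.71. It was 1 of 32 groups of 5 libraries looked at, and chance alone passes this value in about 1 group of 20. Liver 67 was also the library with the largest mitochondrial share (44.5%), whose part in this value was not tested.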

How the results depend on the processing

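Of 199 values of the 10 genes under other settings, 183 kept their direction and their side of the adjusted p, 6 lost it, 8 passed it newly (all LTBP2) and 2 changed sign, which were LTBP2 (0.14) and EMILIN1 (0.024) with library size alone. The 10 genes gave 5 calls in each fit that left out 1 library, and 4 to 6 under the other settings (4 with 10 counts in every library, where MFAP5 was not tested, and 6 with library size alone). Of all tested genes, 22.3% to 23.9% were called with 1 library left out. With 10 counts in every library it was 14.2%, and with library size alone 25.9%. By the adjusted p alone, 5 passed with glmTreat, a stricter test against the fold threshold, 9 to 10 when 1 library was left out and 10 with the boar as a replicate block, where LTBP2 passed. Among all tested genes these shares were 14.8% with glmTreat, 50.6% to 57.7% with 1 library left out and 54.0% with the block. The block changed none of the 5 calls, and in the wider list it changed those of MFAP4, ADAMTSL5 and FURIN and the side of the adjusted p of PPIB. Wider list calls numbered 17 to 21 with 1 library left out, beside the 22.3% to 23.9% of all tested genes. Under the sign flip over boars, the paired replicate block, the differences stayed at -19.7 points for LTBP1, -11.8 for LTBP2, 30.6 for LTBP4 and -2.74 for the log2 ratio of FBLN1 to FBLN5, with adjusted p of 0.0938, since 5 boars cannot give less than 0.0625 before adjustment. The LTBP3 share difference changed sign without liver 71 (-0.27, range -0.27 to 1.85 over libraries left out). The log2 ratio of ELN to FBN1 differed by 0.94 with 1 RPKM added (adjusted p = 0.0381), which weighs on the low FBN1 of liver, and changed sign without backfat 71 (-0.012) and without liver 65 (-0.20), with a range of -0.20 to 0.41. Leaving out 1 library gave -20.3 to -18.2 points for the LTBP1 share, -13.2 to -10.02 for LTBP2, 28.3 to 33.5 for LTBP4 and -2.87 to -2.52 for FBLN1 to FBLN5. Depth limits MFAP5 in liver, with 0 to 47 counts per library.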
